A study of Homo sapiens with 10 samples.

Results

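The miR-17, miR-18 and miR-19 families were followed through a set of messenger RNA pull-downs. The members were the panel assays of hsa-miR-17, hsa-miR-20a, hsa-miR-20b, hsa-miR-93, hsa-miR-106a and hsa-miR-106b (miR-17 seed), hsa-miR-18a and hsa-miR-18b (miR-18 seed), and hsa-miR-19a and hsa-miR-19b (miR-19 seed). They were taken by name and without their passenger strands, 10 of 745 miRNA assays, and all 10 were on panel 1, which held 375 of these. The submitters transfected a nucleic acid probe into cultured cells for 24 hours, took up the probe with its RNA on streptavidin beads, and measured the miRNAs that came along by quantitative PCR, a procedure they name miRIP. The groups were HepG2 cells, a human liver tumour line, with a probe against p21 mRNA, with a probe against STAT3 mRNA, or with a control probe, and PC-3 cells, a human prostate cancer line, with the p21 or the control probe. That made 5 purifications, each run on 2 panels with different assays (10 samples). The labels give neither the probe sequences nor the target of the control probe, the recovery of p21 or STAT3 mRNA was not analysed here, and only small RNAs were measured, so the identity of the lines was not checked with marker genes.

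A miRNA guides an Argonaute protein to messenger RNAs, mainly by pairing of its seed, bases 2 to 8 from the 5′ end. Members with one seed can therefore act on shared targets, and the 3 families are made together from a few polycistronic transcripts, of which the MIR17HG transcript is a known oncogene in lymphoma and other tumours. p21, the product of CDKN1A, is a cyclin-dependent kinase inhibitor that halts the cell cycle, and miRNAs with the miR-17 seed are reported to repress it. STAT3 is a cytokine-activated transcription factor, and miR-17 and miR-20a are reported to repress it too.

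The mature sequences are shown because the families are defined by their seeds and because several members differ by 1 base. They were taken from RefSeq (GRCh38.p14), which matched 10 of 10 members, and capitals mark the seed.
hsa-miR-17: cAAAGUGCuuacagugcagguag
hsa-miR-106a: aAAAGUGCuuacagugcagguag
hsa-miR-20a: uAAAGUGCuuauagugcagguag
hsa-miR-20b: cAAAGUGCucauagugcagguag
hsa-miR-93: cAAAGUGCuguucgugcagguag
hsa-miR-106b: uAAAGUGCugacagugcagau
hsa-miR-18a: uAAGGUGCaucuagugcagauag
hsa-miR-18b: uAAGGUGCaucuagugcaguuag
hsa-miR-19a: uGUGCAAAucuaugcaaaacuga
hsa-miR-19b: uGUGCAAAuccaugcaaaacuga

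Counted from the 5′ end, hsa-miR-17 and hsa-miR-106a differ only by C1A, hsa-miR-18a and hsa-miR-18b only by A20U, and hsa-miR-19a and hsa-miR-19b only by U11C. hsa-miR-20a differs from hsa-miR-17 by C1U and C12U. hsa-miR-93 is the most distant of the equally long miR-17 seed members, with 4 differences from hsa-miR-17. The sources used here do not say how well the assays keep such close sequences apart.

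The genes lie at 3 places. hsa-miR-17, hsa-miR-18a, hsa-miR-19a, hsa-miR-20a and a first copy of hsa-miR-19b follow each other on the plus strand at chr13:91350618-91351267 (mature sequence to mature sequence), inside the long non-coding gene MIR17HG. hsa-miR-106a, hsa-miR-18b, hsa-miR-20b and the second copy of hsa-miR-19b lie on the minus strand at chrX:134169683-134170266. hsa-miR-106b and hsa-miR-93 lie on the minus strand at chr7:100093815-100094063, inside the protein-coding gene MCM7. The hsa-miR-19b assay reads the product of both of its genes together.

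Each well gave a Cq, the PCR cycle at which its signal crossed threshold, and a lower Cq means more RNA. Detected means a Cq of at most 35, and 1 cycle was taken as 1 log2 unit, that is, as a doubling. There was 1 purification and 1 well per assay and condition, so no difference below has a replicate check and none was tested. Fewer recovered molecules and less miRNA per cell cannot be told apart here. The only error in the files is technical: from assays present on both panels, the SD of a single Cq was 0.68 cycles (27 pairs) and that of a difference between purifications 0.72 cycles (14 pairs), offsets between the panels included. The error of transfection and pull-down is unknown. Cq values of different assays also carry each assay's own efficiency, which is not given, so the order of members is an order of assay readings.

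Over all 745 assays, 211 were detected in HepG2 with the p21 probe, 256 with the STAT3 probe and 125 with the control probe, against 53 and 16 in PC-3 with the p21 and the control probe. Within each purification the detected assays had a median Cq of 32.99 to 34.18, near the limit. None of the readings of the 9 water wells gave a Cq. U6, SNORD38B and SNORD49A, small RNAs used as references, read 1.86, 2.82 and 2.63 cycles lower on panel 1 with the p21 than with the control probe in HepG2, and 1.44, 1.90 and 1.91 cycles lower with the STAT3 than with the control probe.

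In HepG2, 5 of 10 members were detected with every probe, the control included, and 4 of these read at least 1 cycle inside the limit each time. Of all 745 assays, 89 were detected with all 3 HepG2 probes. Panel 1, with 375 assays, held 72 of these besides the 5 members. With the p21 probe 7 of 10 members were detected, where 34.1% of the panel 1 assays were. With the STAT3 probe 5 of 10 were detected (37.1% of the panel 1 assays), and with the control probe 6 of 10 (28.8%). The 5 members detected with all 3 probes were hsa-miR-106a, hsa-miR-93, hsa-miR-20a, hsa-miR-19b and hsa-miR-18b. hsa-miR-20b and hsa-miR-106b were within the limit in none of the 5 purifications.

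The lowest Cq among the members was that of hsa-miR-106a, a miRNA of the X-linked locus. It gave Cq 28.35 with the p21 probe and 30.82 with that against STAT3, against 32.01 with the control probe. That placed it 16th of 211, 28th of 256 and 31st of 125 detected assays. hsa-miR-93 read 29.85 (p21), 30.79 (STAT3) and 32.45 (control). hsa-miR-20a read 30.07, 31.50 and 33.01 in the same order of probes. These 3 members, from 3 different loci, had their lowest Cq with the p21 probe, the next with the STAT3 probe and the highest with the control probe. That order was not particular to them. On panel 1 it also held for U6, SNORD38B, SNORD49A and hsa-miR-19b, though not for hsa-miR-18b. The median shifts of the panel 1 assays between the HepG2 purifications went the same way.

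hsa-miR-17, which gives the family its name, had late readings. It read Cq 33.53 with the p21 probe and 35.50, past the limit, with that against STAT3, against 34.996 with the control probe, where it was the last of 125 detected assays. hsa-miR-106b read 35.78 with the p21 probe and 35.12 with that against STAT3, and gave no Cq with the control probe. hsa-miR-20b gave a Cq only with the STAT3 probe, at 36.79. These 3 members of the miR-17 seed read 33.53 or later in every HepG2 purification, or gave no Cq, while the other 3 lay between 28.35 and 33.01.

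The miR-18 pair showed opposite orders. hsa-miR-18a read 32.86 with the p21 probe and 35.15 with that against STAT3, and gave no Cq with the control probe. hsa-miR-18b read 34.87 with the p21 probe and 33.45 with that against STAT3, against 33.50 with the control probe. hsa-miR-18a was thus 2.01 cycles ahead of hsa-miR-18b with the p21 probe and 1.70 cycles behind it with the STAT3 probe. The SD of a single Cq was 0.68, and that of a gap between wells is larger. The hsa-miR-18a reading with the STAT3 probe was also past the limit.

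The miR-19 pair was unequal in HepG2. hsa-miR-19b read 30.17 with the p21 probe and 31.76 with that against STAT3, against 32.62 with the control probe. hsa-miR-19a read 35.45, 36.29 and 36.30, past the limit with each probe. The gap between the pair was 5.28 cycles with the p21 probe, 4.53 with the STAT3 probe and 3.68 with the control probe.

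**Figure D1:**
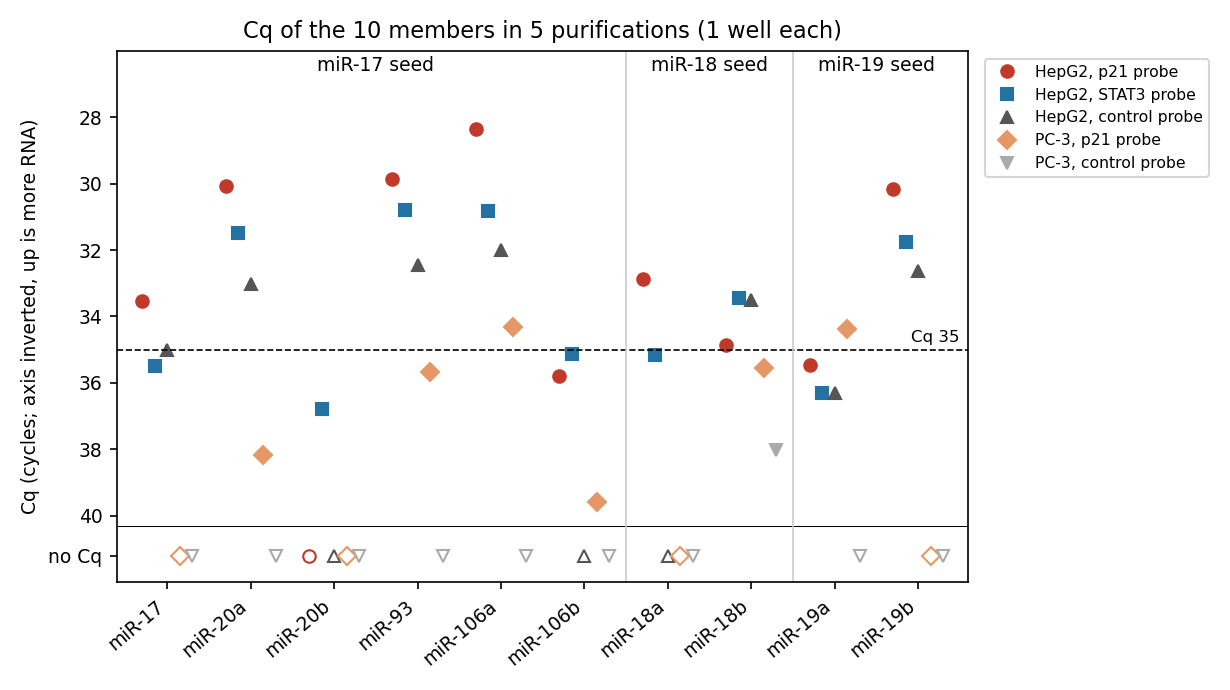
Cq of the 10 members (x axis, grouped by seed) in the 5 purifications, with the axis inverted so that up is more RNA; each point is 1 well, the dashed line is the limit of 35, and open symbols in the lowest strip had no Cq. hsa-miR-106a with the p21 probe in HepG2 is the highest point (28.35), and the PC-3 control probe gave 1 point, hsa-miR-18b at 38.03.

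Members of 1 locus did not read alike. On chromosome 7, hsa-miR-93 and hsa-miR-106b were 5.93 cycles apart with the p21 probe. On the X chromosome hsa-miR-106a and hsa-miR-18b were 6.52 cycles apart with that probe, and hsa-miR-20b gave no Cq. On chromosome 13 the range was 5.38 cycles, between hsa-miR-20a and hsa-miR-19a. Assay efficiency is part of each of these gaps.

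With the p21 probe in HepG2, 4 of 6 members detected in both purifications stood at least 2-fold above the median assay, and 1 was below it. Values were centred on the median of the panel 1 assays detected with both probes, which themselves shifted by 1.302 cycles towards the p21 probe (87 assays). hsa-miR-106a was 2.36 log2 units above the median assay (5.12-fold, 13th of 87), hsa-miR-20a 1.64 (3.11-fold), hsa-miR-93 1.29 (2.45-fold) and hsa-miR-19b 1.15 (2.22-fold). hsa-miR-17 stood at 0.17. hsa-miR-18b was at -2.68, 82nd of 87. Among all 103 such assays, the share higher by 2-fold or more was 37.9% and the share lower by as much was 36.9%.

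The members' median was 1.22 log2 units, against 0 for all assays by construction, and 2.52 against 1.19 without centring. hsa-miR-18a was the only member detected with the p21 probe alone, as were 14.5% of all assays. It was at least 1.79-fold higher after centring on the panel median. Before centring this bound was 2.14 log2 units. The small RNAs on the same panel shifted by 2.44 cycles, and the reference assays, described below, by 3.72. On both of those centres the bound is negative, so no increase is shown. UniSp6 (0.24) and UniSp3 (-2.28), also used as centres below, shifted by less than the bound. hsa-miR-19a read 0.85 cycles lower with the p21 than with the control probe, with both wells past the limit. Of the 6 centred values, those of hsa-miR-93, hsa-miR-19b and hsa-miR-17 were less than 2 technical SDs from 0.

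The STAT3 probe gave smaller differences from the control probe. Of 5 members measured with both, hsa-miR-93 (1.17) and hsa-miR-20a (1.02) were at least 2-fold above the median assay and none was at least 2-fold below. hsa-miR-106a stood at 0.70, hsa-miR-19b at 0.37 and hsa-miR-18b at -0.45. Over all 100 such assays the share higher by 2-fold or more was 29% and the share lower by as much was 25%, and each of the 5 values lay within 2 technical SDs of 0. The members' median was 0.70, and panel 1 as a whole had shifted by 0.49 cycles towards the STAT3 probe. hsa-miR-17 was detected with the control but not the STAT3 probe, as were 3.36% of all assays, with its STAT3 reading 0.50 cycles past its control reading.

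The p21 and STAT3 comparisons share the control purification, so the 2 target probes were also set against each other. hsa-miR-106a was 1.82 log2 units higher with the p21 than with the STAT3 probe (3.54-fold), and hsa-miR-18b was lower, at -2.06. hsa-miR-19b (0.95), hsa-miR-20a (0.79) and hsa-miR-93 (0.30) lay between. Among all 155 such assays, 29% were higher and 20% lower with p21 by 2-fold or more. hsa-miR-18a and hsa-miR-17 were detected with the p21 but not the STAT3 probe, as were 7.52% of all assays. They were at least 2.83-fold and 1.78-fold higher after centring on the panel median. Before centring these bounds were 2.14 and 1.47 log2 units. The small RNAs on the same panel shifted by 0.68 cycles and the reference assays by 1.66. On the reference assays no increase of hsa-miR-17 is therefore shown.

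**Figure D2:**
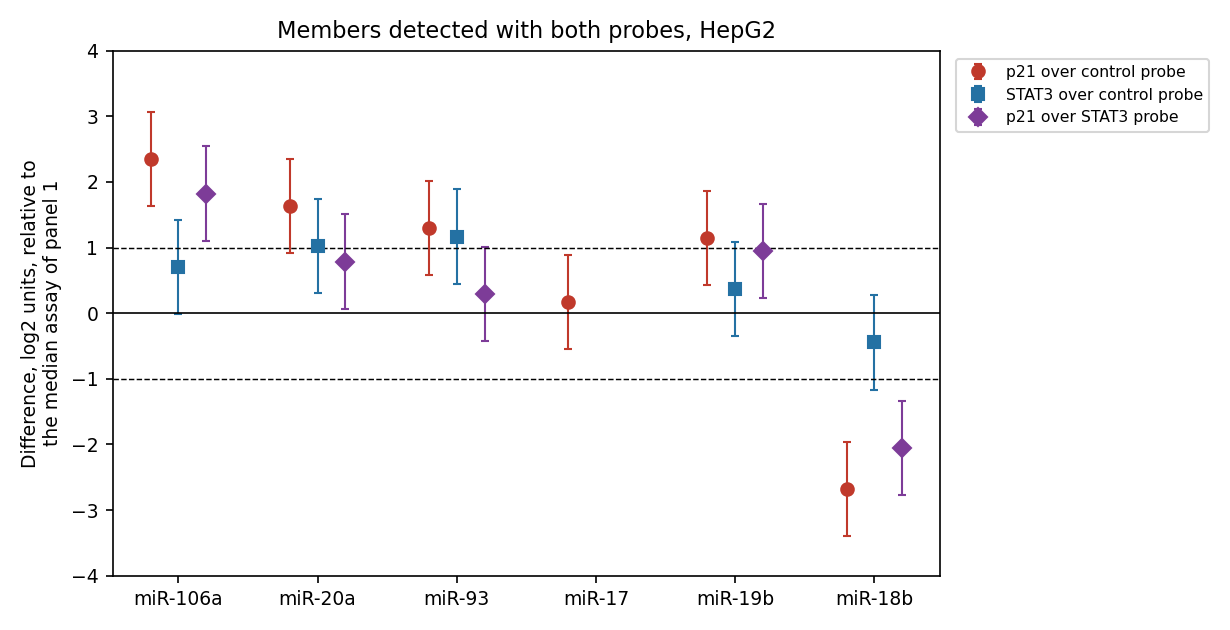
Centred difference in log2 units (y axis) for the 6 members detected with 2 probes or more in HepG2, by comparison; bars are 1 technical SD of a difference (0.72 cycles) and dashed lines mark 2-fold. hsa-miR-106a is highest for p21 over control (2.36) and hsa-miR-18b lowest (-2.68), while the STAT3 over control values lie between -0.45 and 1.17.

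How far the members differed from each other does not depend on the centre, since all were on panel 1 and a common shift drops out. For p21 over control the 6 members spanned 5.03 log2 units, and for STAT3 over control the 5 members spanned 1.61. Much of the wider span rests on hsa-miR-18b, which read Cq 34.87 with the p21 probe, near the limit. Without it the widest gap was 2.19 for p21 over control, between hsa-miR-106a and hsa-miR-17. For STAT3 over control, where hsa-miR-17 had no value, it was 0.80, between hsa-miR-93 and hsa-miR-19b. The technical SD of such a gap was 1.02. hsa-miR-106a shifted 2.19 log2 units more than hsa-miR-17, whose control reading was 34.996, although their sequences differ at the first base only. It shifted 0.72 more than hsa-miR-20a, 1.06 more than hsa-miR-93 and 1.21 more than hsa-miR-19b, gaps of less than 2 technical SDs. The gap between hsa-miR-106a and hsa-miR-18b, encoded at the same X-linked locus, was 5.03 for p21 over control and 1.15 for STAT3 over control.

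Whether the members count as recovered above background depended on what was taken as unchanged. Centred on U6, SNORD38B and SNORD49A, the members' median for p21 over control was 0.087, with hsa-miR-106a at 1.22 and hsa-miR-18b at -3.81. Centred on these small RNAs together with the reference miRNAs detected in both purifications, miR-103 and miR-423-5p, the median was -1.20. On panel 1 these 2 miRNAs had themselves shifted by 5.59 and 5.71 cycles, while the miR-103 well on panel 2 had shifted by 3.32. On UniSp6, a spiked-in synthetic template, the median was 2.29, and on the UniSp3 calibrator it was 4.80, where the 3 UniSp3 wells of the p21 purification ranged from Cq 21.60 to 24.91. For STAT3 over control the medians were -0.56, -0.91, 1.68 and 2.49 on these 4 centres.

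**Figure D3:**
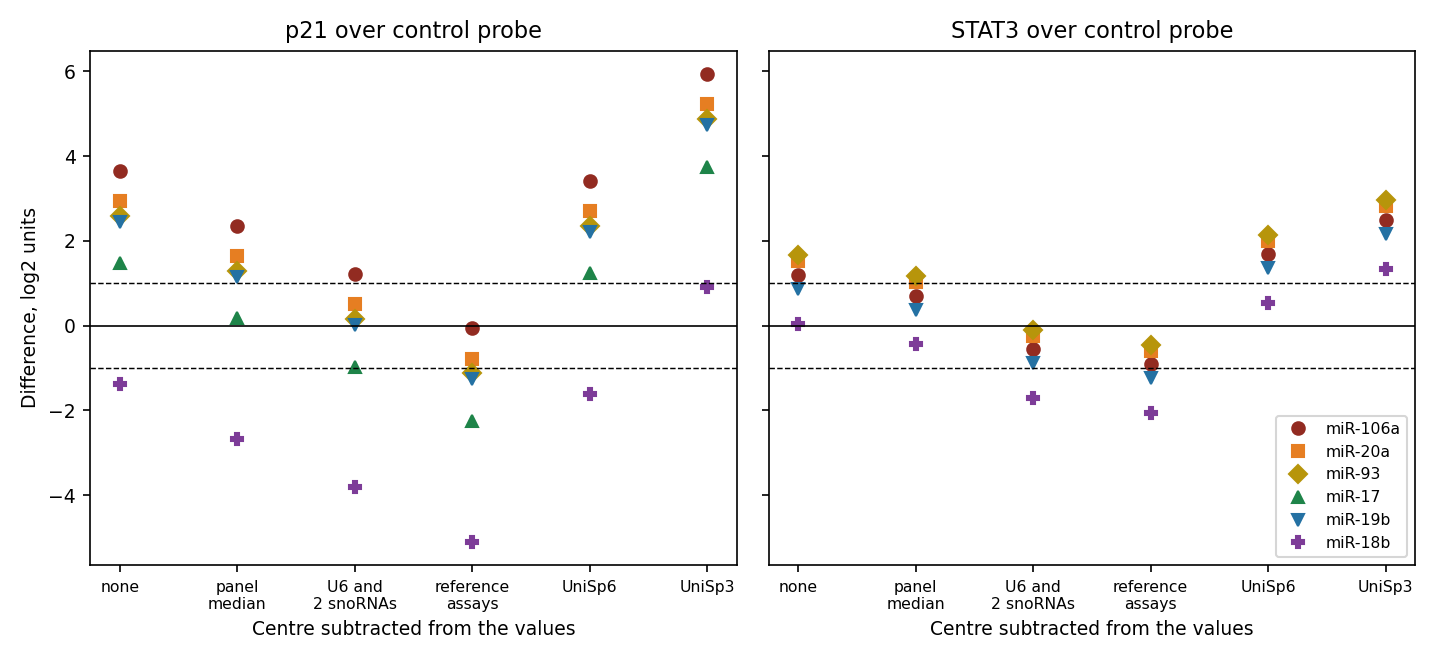
Difference in log2 units (y axis) of each member for p21 over control (left) and STAT3 over control (right) in HepG2, under 6 choices of the centre (x axis); 1 point per member and dashed lines at 2-fold. The order of the members is the same under each centre, while their median runs from -1.20 to 4.80 for p21 and from -0.91 to 2.49 for STAT3.

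In PC-3 the p21 probe recovered 2 members above the limit and the control probe none. hsa-miR-106a read Cq 34.33 and hsa-miR-19a 34.37 with the p21 probe, against no Cq for either with the control probe. Detection was 2 of 10 members against 10.1% of panel 1 assays with the p21 probe, and 0 of 10 against 2.13% with the control probe. Over all assays 5.77% were detected with the p21 probe alone. Both readings were less than 1 cycle from the limit, and the panel 1 assays measured with both probes had shifted by 1.89 cycles (6 assays), so no fold is given.

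Further readings with the p21 probe in PC-3 lay past the limit: 35.54 for hsa-miR-18b, 35.67 for hsa-miR-93, 38.18 for hsa-miR-20a and 39.59 for hsa-miR-106b. hsa-miR-17, hsa-miR-20b, hsa-miR-18a and hsa-miR-19b gave no Cq. With the control probe hsa-miR-18b gave a Cq, at 38.03, and the other 9 gave none.

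Between the p21 purifications of the lines, hsa-miR-106a read 5.98 cycles lower in HepG2 (28.35) than in PC-3 (34.33). The 31 panel 1 assays detected in both were a median of 2.504 cycles lower in HepG2, which left hsa-miR-106a 3.47 log2 units higher there. U6 (-0.16), SNORD38B (0.58) and SNORD49A (1.08) differed by less, with positive values for more RNA in HepG2. The miR-19 pair had opposite orders in the lines: hsa-miR-19b was detected and hsa-miR-19a was not in HepG2 (30.17 and 35.45), while in PC-3 hsa-miR-19a read 34.37 and hsa-miR-19b gave no Cq.

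The passenger strand is the opposite arm of the hairpin, usually degraded once the guide is loaded. Passenger assays for the members' hairpins numbered 10, of which 3 were detected in HepG2 with the p21 probe, 5 with the STAT3 probe and 0 with the control probe, and 0 in PC-3. Over all 745 assays the HepG2 counts were 211, 256 and 125 in the same order of probes. miR-93* had the same order of probes as its guide, at Cq 32.20 with the p21 probe and 34.35 with that against STAT3, against 35.59 with the control probe. Centred on the panel 2 median, it was at least 3.33-fold higher with the p21 than with the control probe and 2.07 log2 units higher with p21 than with STAT3. That median shift for p21 over control was 1.06 cycles and rests on 16 assays. On panel 2 the small RNAs shifted by 2.51 cycles and the reference assays by 2.71, so the bound is lower on those centres. miR-17* read 34.25 (p21) and 33.45 (STAT3), and miR-106b* read 33.94 and 33.64, with no control Cq for either. Their guides read 33.53 and 35.50 (hsa-miR-17) and 35.78 and 35.12 (hsa-miR-106b), so miR-106b* was within the limit in purifications where hsa-miR-106b was not. These passenger assays were on panel 2, and UniSp6 on panel 2 read 20.37 with the p21 and 19.90 with the STAT3 probe, against 21.18 and 21.90 on panel 1.

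**Figure D4:**
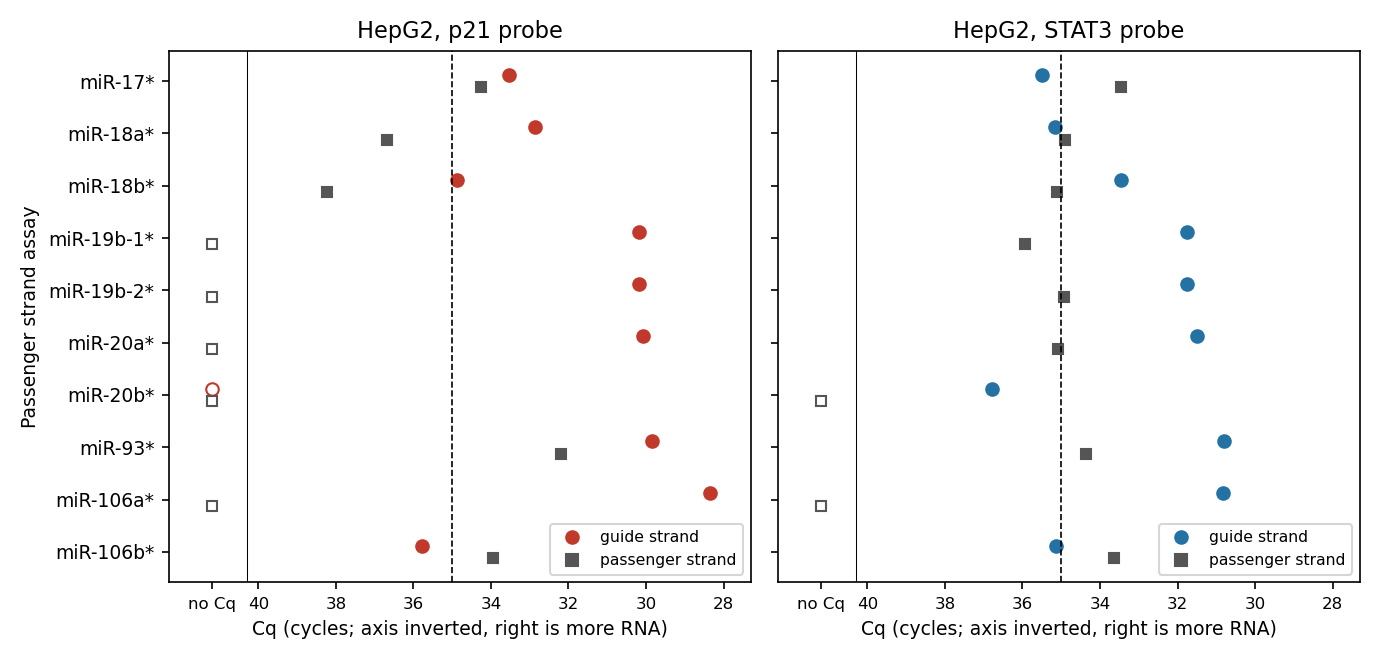
Cq (x axis, inverted so that right is more RNA) of the 10 passenger strand assays (squares) and of the guide strand of the same hairpin (circles) in HepG2 with the p21 probe (left) and the STAT3 probe (right); open symbols had no Cq and the dashed line is the limit of 35. miR-93* with the p21 probe is the passenger strand with the lowest Cq (32.20), and hsa-miR-19b stands for both of its hairpins.

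Other miRNAs with the same or a nearly identical seed were mostly past the limit or without a Cq. The panels held 2 further assays with all 7 bases of the miR-17 seed, miR-519d and miR-526b*, and neither was detected, although each gave a Cq past the limit in 1 purification. Of 15 assays that share 6 bases of that seed, offset by 1 position, 7 gave a Cq in some purification and 1 was detected. Of all 745 assays, 416 were detected in none of the 5 purifications. The 15 assays that share 6 bases are the miR-302, miR-372, miR-373, miR-519 and miR-520 relatives, known from embryonic stem cells and placenta. The detected one was miR-302e, at Cq 33.90 with the p21 probe in HepG2 and 36.38 with the STAT3 probe, with no Cq with the control probe.

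miR-92a, miR-25 and miR-363 are encoded beside the members but carry another seed, which they share with miR-92b, encoded elsewhere. For p21 over control in HepG2, miR-92a stood at 7.74 log2 units and miR-92b at 6.41 after centring on the panel median, and miR-25, from the chromosome 7 locus, at 0.25. For STAT3 over control miR-92a stood at 3.30, miR-92b at 4.02 and miR-25 at 1.89. miR-363, from the X-linked locus, gave no Cq in any purification.

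The assays with the most similar pair of shifts (p21 over control and STAT3 over control, uncentred, 72 other panel 1 assays, 3 purifications) were named for each member detected with all 3 HepG2 probes. For hsa-miR-20a (2.94 and 1.51) they were miR-181a (2.96 and 1.48), at a distance of 0.042 log2 units, and miR-221. For hsa-miR-93 they were miR-221 and miR-720, at 0.16 and 0.36. miR-15a and miR-210 were nearest to hsa-miR-106a, at 0.52 and 0.53, and miR-27a and miR-940 to hsa-miR-19b, at 0.47 and 0.54. For hsa-miR-18b they were farther away, miR-126* at 0.77 and let-7d* at 0.93. All of these distances, those of hsa-miR-18b included, were below 1.02 log2 units. That is the technical SD of a single gap between the differences of 2 assays, and each distance combines 2 such gaps.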

How the data were processed

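The Cq values were deposited unnormalised, 1 well per assay. Per the labels, miRNAs were measured on Exiqon panels with SYBR Green RT-PCR; the sources used here do not name instrument, threshold or software. The authors also deposited fold ratios (729 entries), 2 to the power of minus ΔΔCt per the file headers. Their columns are titled as log values, but no entry is negative, and they were read as linear.

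Groups came from the labels. Per panel, each difference was the Cq of the second probe named minus that of the first, minus the median over miRNA assays detected (Cq of at most 35) with both. A size of 1 log2 unit was counted as higher or lower. With 1 purification per condition no test was run. Technical SDs are root mean square gaps between panels divided by the square root of 2. Bounds set the undetected well to 35. The calculation was checked with known shifts (Python 3.11, pandas 2.3.3). All members are named, with their passenger strands, cluster mates, seed relatives and nearest 2 assays; older names without an arm were read as the arm with the seed. The members and lists were chosen with earlier results of these data known.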

Additional observations from a re-analysis of the deposited data

Results flagged for a closer look

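hsa-miR-18b had uncentred differences of opposite sign with the p21 probe in the 2 lines. In HepG2 it read Cq 34.87 with the p21 probe and 33.50 with the control probe, a difference of -1.37 log2 units. In PC-3 it read 35.54 and 38.03, a difference of 2.49, of which 0.59 remained after subtraction of the panel 1 median shift and 0.35 after that of the reference assays, below the technical SD of 0.72. The HepG2 values under these 2 centres were -2.68 and -5.10. The reference centres were unlike: in PC-3 only U6, SNORD38B and SNORD49A entered, while in HepG2 miR-103 and miR-423-5p entered too. On U6, SNORD38B and SNORD49A alone the HepG2 value was -3.81. On UniSp3 both lines were positive, at 0.90 in HepG2 and 2.09 in PC-3. Both PC-3 wells lay past the limit of 35, each arm was 1 well, and the difference between the lines was not tested.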

How the results depend on the processing

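The choice of centre moved most values. For p21 over control in HepG2 the members' median was 2.52 without centring, -1.20 on the reference assays, 0.087 on U6, SNORD38B and SNORD49A, 4.80 on UniSp3, 2.29 on UniSp6 and 2.29 in the authors' deposited table. The 4 members at least 2-fold higher became 0 on the reference assays, 1 on the small RNAs and 1 at 4-fold. The 1 lower member became 4 on the reference assays, 0 on UniSp3 and 4 with undetected wells at 35, where members undetected with both probes take minus the panel shift. On the reference assays hsa-miR-106a (-0.066), hsa-miR-20a (-0.78), hsa-miR-93 (-1.13), hsa-miR-19b (-1.27) and hsa-miR-17 (-2.25) turned negative, hsa-miR-17 was also negative on the small RNAs (-0.97), and on UniSp3 hsa-miR-18b was 0.90. For STAT3 over control the median was -0.91 on the reference assays, -0.56 on the small RNAs, 2.49 on UniSp3, 1.68 on UniSp6, 1.68 in the authors' deposited table and -0.47 with undetected wells at 35. Members at least 2-fold higher were 0, 0, 5 and 4 on those 4 centres and 0 at 4-fold, and lower members 2 on the reference assays and 1 on the small RNAs. hsa-miR-20a and hsa-miR-93 turned to -0.59 and -0.45 on the reference assays and to -0.24 and -0.093 on the small RNAs, and hsa-miR-106a and hsa-miR-19b were negative on both centres too (-0.91 and -1.25, -0.56 and -0.89). For p21 over STAT3 the median was -0.23 on the reference assays and 2.41 on UniSp3. Higher members were 3 without centring, 0 on the reference assays, 4 on UniSp3, 5 at Cq 37, 2 with undetected wells at 35 and 0 at 4-fold, and lower members 0 on UniSp3, 0 at Cq 32 and 2 at Cq 37. In PC-3 no member was measured with both probes; with undetected wells at 35 all 10 were at least 2-fold lower, since the panel shift of 1.89 exceeds the 0.67 and 0.63 cycles by which hsa-miR-106a and hsa-miR-19a lay inside the limit and the 8 others were set to 35 with both probes.

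Members detected in HepG2 at Cq 32 were 4 (p21) and 0 (control), and all 10 gave a Cq of at most 37 with STAT3. In PC-3 the p21 probe gave 0 at Cq 32, 4 at Cq 37 and 6 with any Cq, and the control probe 1 with any Cq. Of 127 single-member values under the alternatives, 56 moved by less than the technical SD. These are not separate checks, since a change of centre moves all members of a comparison by a common shift. With undetected wells at 35, the values of members detected with both probes cannot change, and they are counted among the 56. Values near Cq 35 rest on few template molecules and are less precise than that SD.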

Other observations

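The authors' deposited table lists hsa-miR-106a at 10.7-fold for p21 over control and 3.21-fold for STAT3 over control in HepG2, hsa-miR-20a at 6.52 and 4.005, and hsa-miR-18b at 0.327 and 1.45. Rebuilt from the Cq values with UniSp6 as the normaliser and readings past 35 set to 35, the members' folds came out within 0.01 log2 units for 10 of 10 members for p21 in HepG2, 7 of 10 for STAT3 and 10 of 10 for p21 in PC-3. The 3 others, hsa-miR-17, hsa-miR-18a and hsa-miR-19a for STAT3, match within the same tolerance when the STAT3 reading past 35 is used as read, while hsa-miR-20b and hsa-miR-106b match with the reading set to 35. The authors' deposited table therefore has 0.573-fold for hsa-miR-19a with STAT3, although its readings were 36.29 with the STAT3 probe and 36.30 with the control probe.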
